A study of Bos taurus with 23 samples.

Results

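The endometrial response to a Day 15 bovine conceptus of in vitro origin was measured against culture in medium alone, in 13 of the 23 RNA libraries of the series. They were chosen by their labels: 7 explants labelled IVF and 6 labelled Control, of which 6 IVF and 6 Control explants carry the same uterus numbers (1, 2, 3, 4, 5 and 10) and form 6 pairs. The IVF explant of uterus 7 has no Control explant and enters levels and unpaired tests alone. All explants were punches of intercaruncular endometrium, the gland-bearing lining between the sites of placental attachment, from uteri of Bos taurus in the middle of the luteal phase. They were held in culture for 1 to 5 h and then kept for 6 h in RPMI medium, alone (Control) or together with 1 conceptus (IVF). The IVF conceptuses had begun as blastocysts made in vitro and had then grown in a recipient until Day 15, so their in vitro origin covers the stages before transfer. They were 8 to 54 mm long, 25.4 mm ± 15.2 (SD, n = 7), and 5 were male and 2, those of uteri 2 and 4, female. The IVF titles of uteri 1 and 2 share a further code, as do those of uteri 3 and 4, and all 4 AI titles share 1 code. The labels do not say what it stands for. Should it mark a common sire, dam or recipient, these conceptuses would not be independent. The other groups of the series were used to place the IVF values. They were 6 explants in medium with 100 ng per mL of recombinant interferon tau of the sheep (IFNT) and 4 with a conceptus grown from an in vivo blastocyst (AI), 1 male and 3 female, 21 to 31 mm long.

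In ruminants the elongating conceptus announces itself through interferon tau, a type I interferon made by the trophectoderm. It acts on the endometrium through the interferon receptor and JAK-STAT signalling, which switches on interferon-stimulated genes, and it keeps the corpus luteum alive by holding back the pulses of prostaglandin that would otherwise end the cycle. Conceptuses also release other signals, among them prostaglandins and cortisol, and length is commonly taken as a measure of how far elongation has gone.

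Total counts were 19461678 to 32152427 per Control library and 23505348 to 36730378 per IVF library. Of 15227 genes with enough reads to test, the median log2 fold change between IVF and Control was 0.01. The Control and IFNT columns of the table are numbered apart from the conceptus columns. The labels do not say whether the numbering marks a batch, and a batch that followed it cannot be told apart from the conceptus. The table names genes by Ensembl identifier, and none could be paired with a symbol here, so genes are described by how they behaved, and the labelled tissue was not checked against marker genes. The tissue was sequenced in bulk, where a change in the number of cells of a type and a change in RNA per cell cannot be told apart.

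With the IVF conceptus, more genes were called higher than lower. With uterus in the model, 70% of the called genes were higher in edgeR (794 higher and 340 lower) and 57.9% in DESeq2 (988 and 719). These shares were smaller than those without uterus in the model, 86.7% in edgeR and 78.6% in DESeq2. With the uterus left out of the model, 445 genes rose (2.92% of those tested) and 68 fell (0.447%), 3.37% in all at an edgeR adjusted p under 0.05. Risen genes moved further: their median log2 fold change was 1.40 (quartiles 0.83 and 2.40), against -0.55 (quartiles -0.88 and -0.45) for fallen genes. The medians lay closer with uterus in the model, at 0.81 for the 794 risen and -0.44 for the 340 fallen genes. Of the 445 risen genes, 85 changed at least 8-fold, 50 changed 4- to 8-fold, 165 changed 2- to 4-fold and 145 changed less than 2-fold. Of the 68 fallen genes, 13 changed 2- to 4-fold, 55 changed less than 2-fold and none changed more. The number of fallen genes rested on few libraries. Dropping the Control explant of uterus 1, 2 or 3 left 27, 36 or 40. The count was 20, 21, 39 and 27 without all explants of uterus 1, 2, 3 and 4. It was 44 in a model of Control and IVF alone, 141 in DESeq2 and 43 with 1 IVF library for each title code. The libraries dropped in this last setting, the IVF explants of uteri 2 and 4, were those of the 2 female conceptuses.

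**Figure D1:**
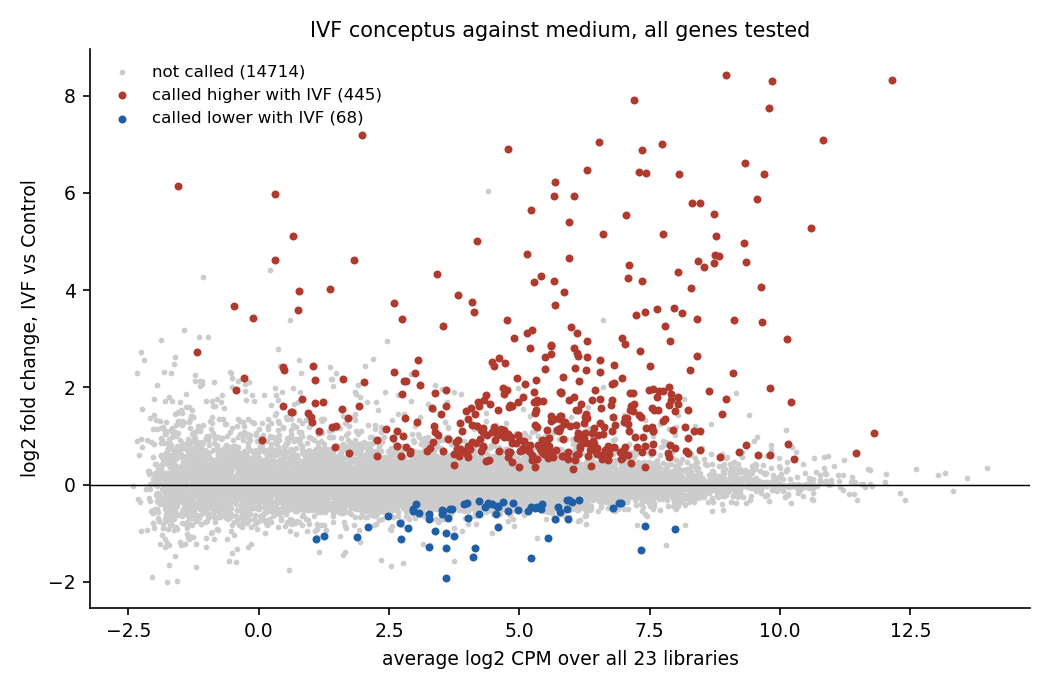
Each point is 1 of 15227 genes, with its average log2 CPM over all 23 libraries on the x axis and its log2 fold change between IVF and Control on the y axis. The 445 genes called higher (red) reach above 8 on the log2 scale, whereas the 68 called lower (blue) stay above -2.

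Size of the rise differed with the level in medium. Among 39 risen genes with a mean under 1 CPM in Control, the median log2 fold change was 3.42. It was 1.94 among 113 risen genes at 1 to 10 CPM, 1.16 among 252 at 10 to 100 CPM and 0.81 among 41 at 100 CPM and over. In the same order, 2.12%, 2.59%, 3.49% and 2.27% of the tested genes of each level rose. Small changes are harder to call in genes with few reads, and this alone raises the median fold of called genes at low levels. A gene near silence in Control can also pass the filter on low counts through the groups where it is high, and over all 1841 tested genes under 1 CPM the median log2 fold change was 0.17, against -0.01 to 0.04 at the higher levels. Of the 85 genes raised at least 8-fold, 21 were under 1 CPM in Control, 36 were at 1 to 10, 27 at 10 to 100 and 1 above that. Of the 68 fallen genes, 53 were at 10 to 100 CPM in Control, 9 at 1 to 10 and 6 at 100 CPM and over.

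The steepest rise belonged to ENSBTAG00000008471, a gene nearly silent in medium. CPM is the number of reads relative to the scaled library total. It had 17 to 88 reads per Control library, from 0.695 CPM through a median of 1.12 to 4.27 CPM, and 4432 to 36265 reads per IVF library, from 168.7 CPM through a median of 510.5 to 1035.8 CPM. The groups were far apart in every library, and the IVF explants themselves spanned a wide range, lowest in uterus 10 and highest in uterus 7. The log2 fold change was 8.43 ± 0.79 (SE, edgeR adjusted p = 5.59e-08). Within pairs it was higher in 6 of 6 uteri, by 7.55 in uterus 5 to 9.37 in uterus 2 on the log2 scale. The highest Control level was in uterus 1, which was also the second highest pair member with IVF at 840.6 CPM, after uterus 3 at 855.2 CPM.

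ENSBTAG00000016061 rose almost as steeply from a low level and became one of the most sequenced transcripts of the tissue. It lay between 9.18 and 39.5 CPM in Control (median 19.3) and between 3206.9 and 9294.1 CPM with IVF (median 5907.9). No IVF library came near a Control library, and uterus 5 was the lowest and uterus 3 the highest with IVF. By read number, not corrected for length, it ranked 4265 to 9325 among all genes in the Control libraries and 5 to 17 in the IVF libraries, where it took 0.344% to 0.878% of all reads. The log2 fold change was 8.32 ± 0.48 (SE, edgeR adjusted p = 1.11e-11), and pairs differed by 7.36 in uterus 5 to 9.57 in uterus 2.

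Fallen genes kept a sizeable remainder of their transcripts. ENSBTAG00000008735, the deepest fall, was at 16.8 to 37.8 CPM in Control (median 29.6) and 3.99 to 11.7 CPM with IVF (median 6.33), without overlap. Its log2 fold change was -1.91 ± 0.27 (SE, edgeR adjusted p = 3.75e-05), and the pair differences ran from -3.07 in uterus 2 to -1.10 in uterus 4. ENSBTAG00000004207 was at 38.3 to 109.1 CPM in Control (median 70.0) and 17.9 to 35.5 CPM with IVF (median 26.8). Its log2 fold change was -1.51 ± 0.24 (SE, edgeR adjusted p = 1.45e-04). Here the groups came close: the IVF explant of uterus 10, at 35.5 CPM, lay just under the Control explant of uterus 5, at 38.3 CPM. The Control explants of uteri 1, 2 and 3 lay at 89.2 to 109.1 CPM and those of uteri 4, 5 and 10 at 38.3 to 50.9 CPM, while IVF levels showed no such gap. The pair difference was accordingly -2.44 in uterus 1 and -0.36 in uterus 10.

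**Figure D2:**
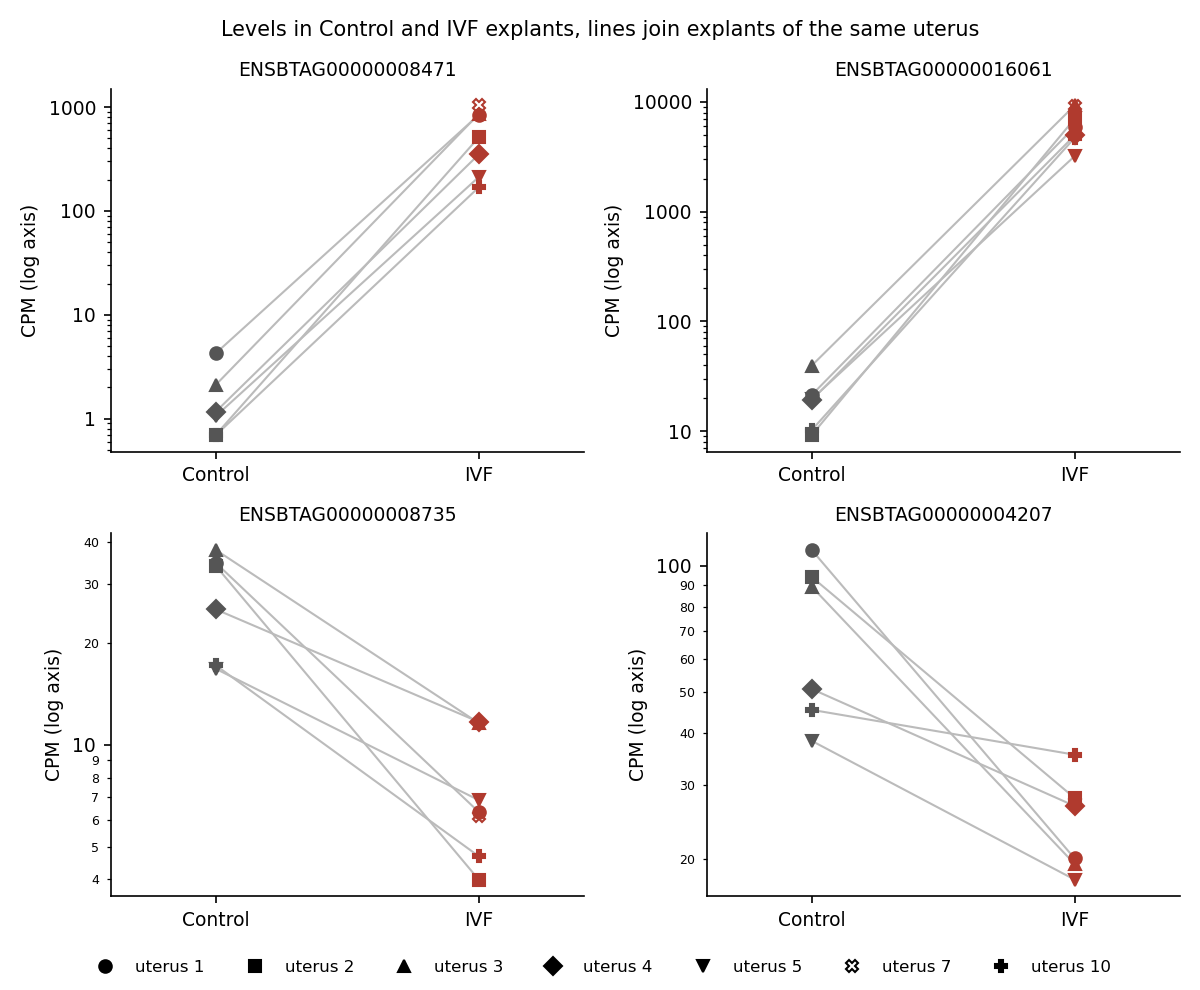
Levels of the genes with the highest (upper panels) and lowest (lower panels) log2 fold changes, in CPM on log axes, with a line joining the Control and IVF explants of a uterus and an open symbol for the IVF explant of uterus 7, which has no Control. All 6 lines rise in the upper panels and all 6 fall in the lower ones, the shallowest being uterus 10 for ENSBTAG00000004207.

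Called genes moved together across uteri. Of the 445 risen genes, 432 were higher with IVF in 6 of 6 pairs (97.1%) and 11 in 5 of 6, where 7.53% of all tested genes were higher in 6 of 6. Of the 68 fallen genes, 58 were lower in 6 of 6 pairs (85.3%) and the other 10 in 5, where 5.61% of all tested genes were lower in 6 of 6. Uterus 5 accounted for 9 of the exceptions among risen genes, uterus 4 for 3 and each of the other uteri for 1, and uterus 10 accounted for 6 of those among fallen genes. For 331 risen genes (74.4%) the lowest of the 7 IVF libraries lay above the highest of the 6 Control libraries, where 2.31% of all tested genes did so. For 25 fallen genes (36.8%) the highest IVF library lay below the lowest Control library, where 0.217% of all tested genes did. These counts describe genes called on the same libraries. The median spread of single genes between explants was alike in both groups. The median SD of log2 CPM was 0.33 in Control and 0.35 with IVF among risen genes. It was 0.25 in both groups among fallen genes, and 0.37 and 0.38 among all tested genes. The SD was larger with IVF for 36.8% of fallen and 53.9% of risen genes, against 50.7% of all tested genes.

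Together the risen genes held 2.43% ± 0.129 (SD, n = 6) of the reads in Control, from 2.28% to 2.67%, and 7.78% ± 1.19 (SD, n = 7) with IVF, from 6.22% in uterus 5 to 9.39% in uterus 7. The risen genes under 1 CPM in Control added little to this, at 0.0593% ± 0.012 (SD, n = 7) with IVF. The 41 risen genes at 100 CPM and over went from 1.39% ± 0.103 (SD, n = 6) to 2.64% ± 0.222 (SD, n = 7). Most of the rise lay in the 113 risen genes at 1 to 10 CPM and the 252 at 10 to 100 CPM. Between 27 and 34 genes held 50% of the risen reads of an IVF library and between 22 and 34 did so in Control, and ENSBTAG00000016061 was the largest contributor in 6 of 7 IVF libraries and in 0 of 6 Control libraries. The fallen genes held 0.346% ± 0.0354 (SD, n = 6) of the reads in Control and 0.198% ± 0.00892 (SD, n = 7) with IVF. Control and IVF did not overlap in either share, and the sets were chosen on these libraries.

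**Figure D3:**
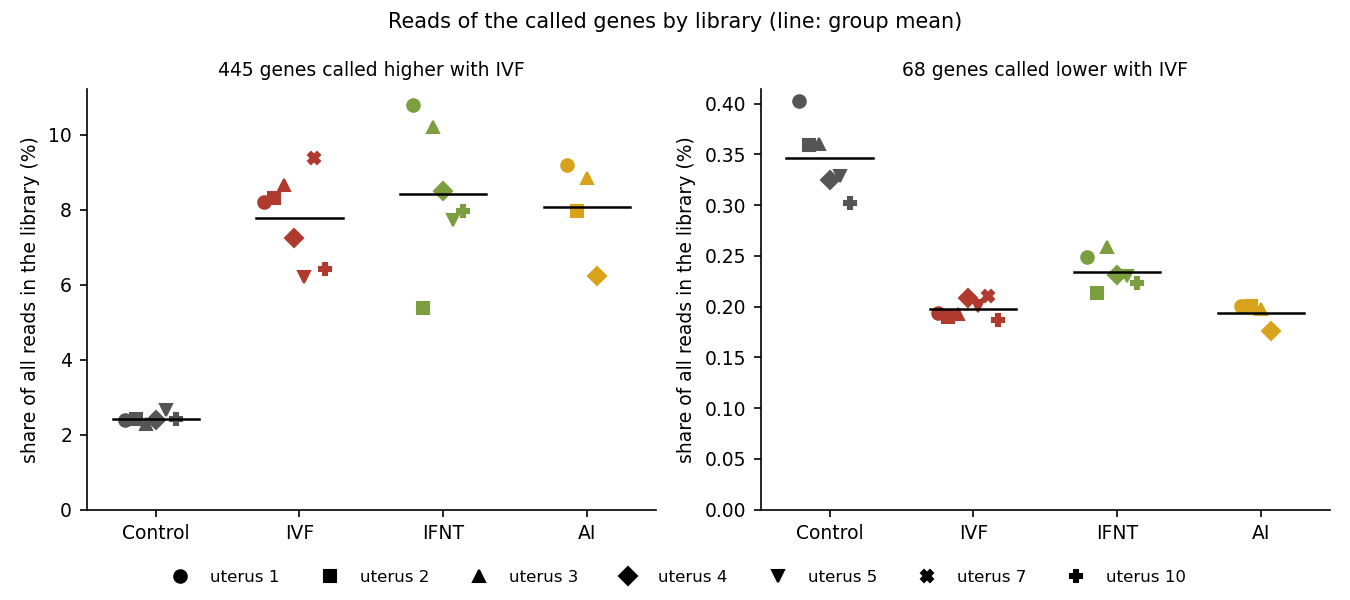
Share of a library's reads in percent taken by the 445 genes called higher (left) and the 68 called lower (right) with IVF, 1 symbol per library and a line at the group mean. The 7 IVF libraries (6.22% to 9.39%, and 0.187% to 0.21%) lie apart from the 6 Control libraries (2.28% to 2.67%, and 0.302% to 0.403%), and the IFNT and AI libraries are shown beside them.

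The size of the response was then read in explants that had no part in choosing the genes. Genes were called without all explants of 1 uterus, and the median difference between its IVF and Control explants was taken over them. For risen genes this median was above 0 in 6 of 6 uteri, 1.50 ± 0.31 on the log2 scale (SD, n = 6), while the median over all tested genes lay between -0.01 and 0.04. It was 1.64 in uterus 1 (353 genes), 1.62 in uterus 2 (370 genes), 1.86 in uterus 3 (342 genes), 1.59 in uterus 4 (367 genes), 1.32 in uterus 10 (400 genes) and 0.98 in uterus 5 (430 genes). Uteri 5 and 10 had the weakest rise, and there 95.1% and 94.8% of the risen genes were higher than in the paired Control explant, against 98.9% to 100% in the other uteri. By level in medium the values were 2.84 ± 0.64 (SD, n = 6) for genes under 1 CPM in the Control explants of the other uteri, 2.21 ± 0.37 for 1 to 10 CPM, 1.26 ± 0.25 for 10 to 100 CPM and 1.00 ± 0.32 for 100 CPM and over. The filter and the level-dependent calling also shaped these classes, so their order is no separate support for the trend above.

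The median over fallen genes also stayed below Control in each left-out uterus, by less and less evenly. The median was -0.56 ± 0.28 (SD, n = 6), from -0.91 in uterus 2 (21 genes) and -0.71 in uterus 1 (20 genes) to -0.33 in uterus 5 (81 genes) and -0.15 in uterus 10 (51 genes). Of the fallen genes, 21.6% in uterus 10 and 11.1% in uterus 5 were higher than in the paired Control explant, and 3.7% to 10% in the other uteri. The sets differ between uteri, since fewer genes were called without uterus 1 or 2. In uterus 7 levels were set against the mean of the 6 Control explants, since it has none of its own. These Control explants had a part in choosing the genes, so the reading in uterus 7 is held out on the IVF side alone. Of 397 genes that rose without it, 392 were above that mean and 93.7% were above the highest Control explant, against 13.1% of all tested genes, and the median difference was 1.67. Of 61 genes that fell without it, 68.9% were below the lowest Control explant, against 13.6% of all tested genes, and the median difference was -0.41.

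**Figure D4:**
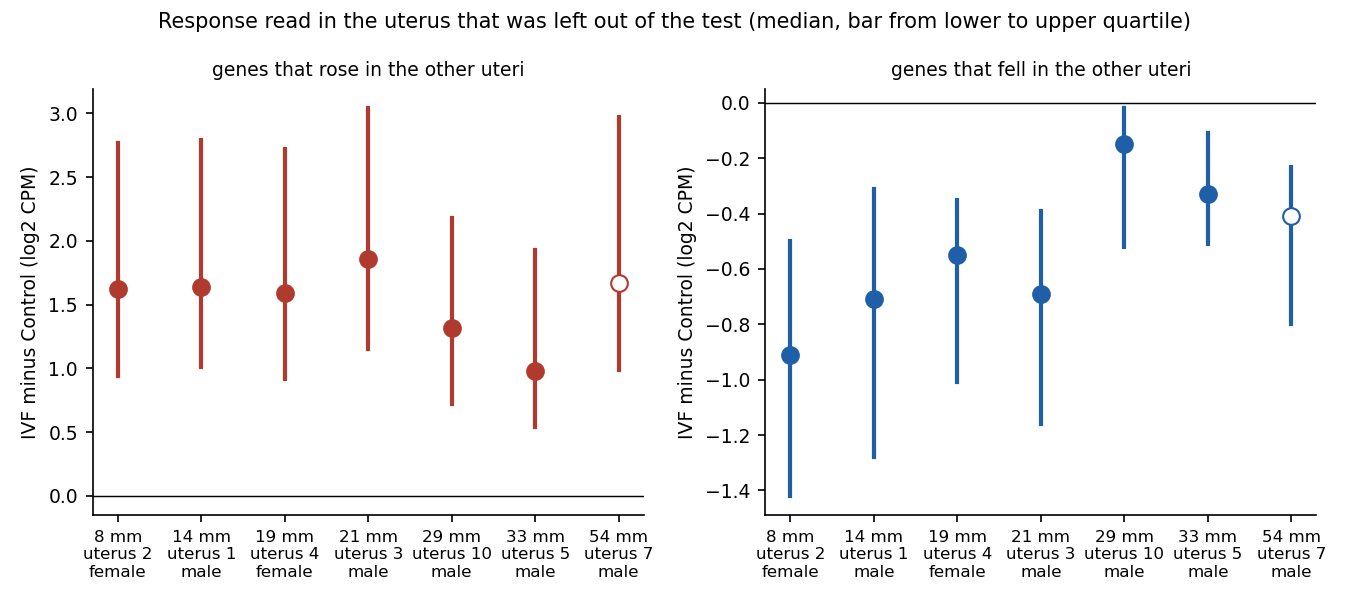
Median difference in log2 CPM between the IVF and Control explants of a uterus (points, with bars from the lower to the upper quartile over genes) for genes called without that uterus, ordered by conceptus length in mm. The open point is uterus 7, set against the mean of 6 Control explants. Risen genes (left) lie between 0.98 and 1.86 and fallen genes (right) between -0.91 and -0.15, with the smallest values at 29 and 33 mm and uterus 7, at 54 mm, at 1.67 and -0.41.

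Explants of 1 uterus resemble each other, and more genes were called once the uterus means were removed. A model with uterus as an additive block called 1134 genes (7.45% of those tested, edgeR), 794 higher and 340 lower, and 511 of the 513 genes were among them in the same direction. The 351 further risen genes and 272 further fallen genes had small changes, with median log2 fold changes of 0.51 and -0.42 in the blocked model. Of these, 47 and 8 changed at least 2-fold. They sat at ordinary levels, with median Control levels of 25.5 and 36.3 CPM, and 241 of the 351 were higher and 226 of the 272 lower in 6 of 6 pairs. DESeq2 with the block called 988 higher and 719 lower, so the share of risen genes among the calls was smaller there. The blocked counts also leaned on single uteri. All calls numbered 633 without uterus 1 and 675 without uterus 3, and risen genes 487 and 450. Fallen genes numbered 146, 225 and 192 without uterus 1, 3 and 4, 187 and 196 when Control 1 or Control 2 was dropped, 200 and 225 when IVF 1 or IVF 3 was dropped (the number is the uterus), and 190 with the 6 pairs alone.

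The IVF response was compared directly with interferon tau and with the AI conceptus, in contrasts between those groups. The Control explants were in the same fits. There they entered the estimate of the spread and, with the block, of the uterus means. Between IVF and IFNT, edgeR called 0 genes (0%) with 866 at an unadjusted p under 0.05, and DESeq2 called 10. With the block edgeR called 3 (0.0197%), with log2 fold changes of -0.43, 0.64 and 0.54 (edgeR adjusted p = 0.0413, 0.029 and 0.0413), and DESeq2 called 389. None of the 3 was called between IVF and Control (edgeR adjusted p = 0.61, 0.888 and 0.279). Of the 445 risen and 68 fallen genes none was called by edgeR in this contrast in either model. Without the block, 275 of the risen genes were lower with IVF than with IFNT (median -0.07 on the log2 scale), and 47 had an unadjusted p under 0.05. Of the fallen genes 61 were lower with IVF, at a median of -0.21, and 21 had an unadjusted p under 0.05, where choosing the genes for low IVF levels favours this direction. Set against the Control explants that all 3 comparisons share, the median over risen genes was 1.40 with IVF, 1.44 with IFNT and 1.41 with AI, as log2 fold changes. The median over fallen genes was -0.55, -0.30 and -0.61 in the same order. The genes were chosen on IVF, which enlarges the IVF values.

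Read in left-out uteri, the risen genes were lower with IVF than with IFNT in 5 of 6 uteri, a difference that was not tested. The median difference was -0.38, -0.24, -0.26, -0.25 and -0.19 in uteri 1, 3, 4, 5 and 10, and 0.66 in uterus 2. Its mean was -0.11 ± 0.38 (SD, n = 6). Without uterus 2, left out after its value was seen, the mean was -0.26 ± 0.07 (SD, n = 5). In uterus 2 the IFNT explant gave 5.38% of its reads to the risen genes, the lowest of the 6 IFNT libraries, and its IVF explant gave 8.31%. The fallen genes differed between IVF and IFNT by -0.14 ± 0.16 (SD, n = 6), below 0 in 4 of 6 uteri and at 0.00 and 0.01 in uteri 5 and 10.

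**Figure D5:**
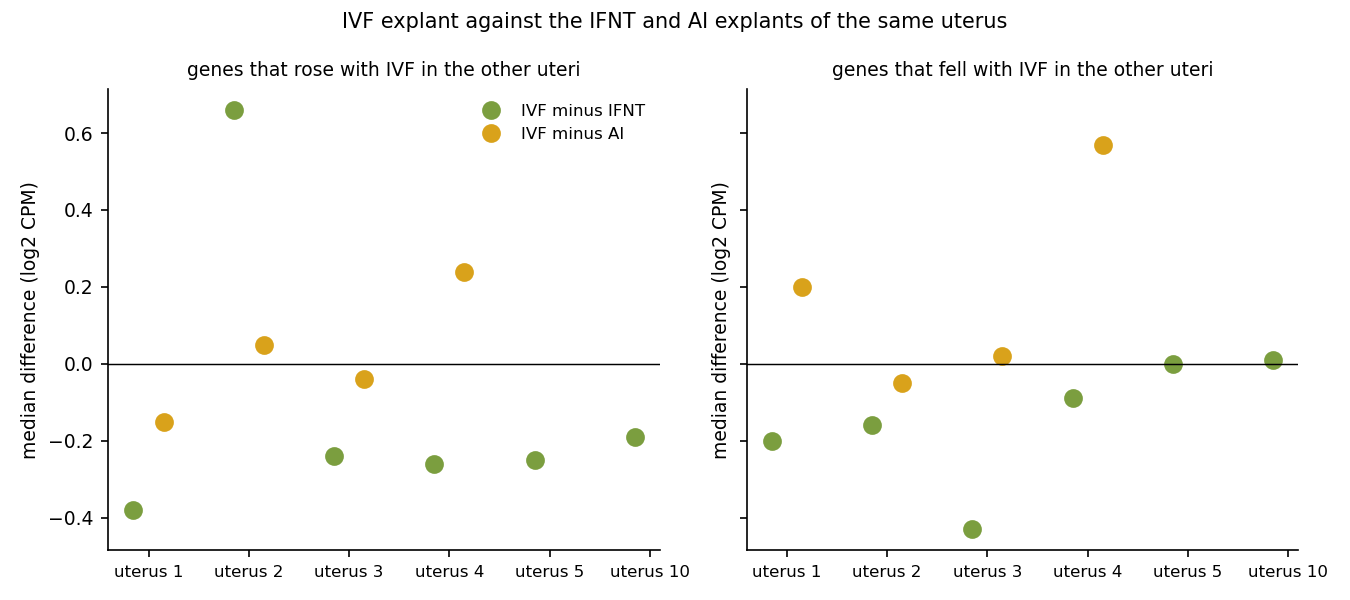
Median difference in log2 CPM between the IVF explant and the IFNT (green) or AI (yellow) explant of the same uterus, over genes that rose (left) or fell (right) with IVF in the other uteri. In the left panel 5 of 6 green points lie between -0.38 and -0.19 and uterus 2 lies at 0.66. Uteri 5 and 10 have no AI explant.

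Between IVF and AI, edgeR called 0 genes (0%) without the block, with 343 at an unadjusted p under 0.05, and DESeq2 also called 0. With the block edgeR called 0, with 1254 at an unadjusted p under 0.05 and a smallest adjusted p of 0.215, and DESeq2 called 85. The risen genes differed between IVF and AI by -0.15, 0.05, -0.04 and 0.24 in left-out uteri 1 to 4, a mean of 0.03 ± 0.16 (SD, n = 4). The fallen genes differed by 0.20, -0.05, 0.02 and 0.57, a mean of 0.18 ± 0.28 (SD, n = 4). If the code that all 4 AI titles share marks 1 source, these are not 4 independent AI conceptuses. Neither mean was larger than its SD, which measures the scatter of single uteri and not the error of the mean, and neither was tested. Uterus 4 had the highest value in both. Its AI conceptus was the only male and, at 21 mm, the shortest of the AI group. Its AI explant gave 6.24% of its reads to the risen genes, the lowest of the 4 AI libraries. Sex, length and the single explant cannot be told apart here. The mean level of ENSBTAG00000016061 was 6330.5 CPM ± 2311.3 (SD, n = 7) in the IVF group, 5849.3 CPM ± 1852.4 (SD, n = 4) in the AI group and 6153.7 CPM ± 2855.2 (SD, n = 6) in the IFNT group, and the 3 ranges overlapped. ENSBTAG00000008471 was at 567.5 CPM ± 344.7 (SD, n = 7), 576.8 CPM ± 362.4 (SD, n = 4) and 874.4 CPM ± 661.1 (SD, n = 6) in the same order. Its blocked log2 fold change between IVF and IFNT was -0.75 ± 0.32 (SE, edgeR adjusted p = 0.297). The mean of ENSBTAG00000008735 was 7.33 CPM ± 3.11 (SD, n = 7) in the IVF group and 5.07 CPM ± 1.27 (SD, n = 4) in the AI group, and in the blocked model IVF exceeded AI by 0.76 ± 0.27 on the log2 scale (SE, edgeR adjusted p = 0.393).

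The IVF conceptuses differed in length and sex, and both were tested within the 7 IVF explants. For the slope on log2 length, edgeR called 0 of 15115 genes (0%), with 406 at an unadjusted p under 0.05, and DESeq2 called 13. The median slope per doubling of length was 0.01 among risen genes, 0.03 among fallen genes and 0.01 among all tested genes. ENSBTAG00000008471 and ENSBTAG00000016061 had slopes of 0.09 and 0.04 (edgeR adjusted p = 1 for each). When the slope was fitted to the difference between IVF and Control in the 6 pairs, 0 genes were called and 739 had an unadjusted p under 0.05. Between male and female conceptuses edgeR called 0 of 15115 genes (0%), but 1620 had an unadjusted p under 0.05, the smallest adjusted p was 0.11 and DESeq2 called 285. Of the 445 risen genes, 8 were among these 1620 of 15115. The risen genes were called on the same IVF libraries, and a call favours genes with little spread within IVF. Their low count therefore cannot show whether the response depends on sex. Each conceptus met another uterus, and the 2 females, at 8 and 19 mm, were among the shorter conceptuses. Sex, length and uterus therefore cannot be told apart there. With log2 length as a covariate, 842 genes had an unadjusted p under 0.05 and edgeR called 0, at a smallest adjusted p of 0.074. In the 6 pairs, where each IVF explant is set against its own Control, 640 genes had an unadjusted p under 0.05 for the difference between 4 male and 2 female conceptuses and 0 were called, at a smallest adjusted p of 0.974.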

How the data were processed

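Read counts per gene were analysed in 23 RNA libraries. The authors deposited whole-number counts for 18897 genes, not normalized, of which 320 had no read. The kit was Illumina's stranded TruSeq for mRNA, per the labels' protocols. HISAT2, StringTie, edgeR and the build UMD3.1 are named in the submitters' processing notes. How reads were counted, with which annotation and strand setting, is not given in the sources used here, so overlapping genes and near-identical copies may share reads. The RefSeq gene table used here (ARS-UCD2.0) matched 0 identifiers, so the pathway and marker lists and the search of promoters could not be used. The text prints the 2 identifiers with the highest and the 2 with the lowest log2 fold change among called genes with an average log2 CPM of at least 1.

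Columns were matched to samples by the column name in each description. In 78 pairs of Control and IVF libraries, chi-square per degree of freedom was at least 85.3, so none was a duplicate. Genes were kept by filterByExpr (15227, holding 99.98% of counts), scaled by TMM and tested with edgeR 4.0.16 quasi-likelihood F tests in R 4.3.3. The fit held all 23 libraries in 4 groups, and a gene was called at an adjusted p (Benjamini-Hochberg) under 0.05. SE is the absolute log2 fold change over the square root of F. A prior count of 2 was added for log2 CPM. DESeq2 1.42.0, median-ratio size factors, other filters, left-out libraries and uteri and a uterus block were alternatives. The fits were also run on simulated data with planted changes, and the share recovered is not reported here.

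The block is printed because the U numbers of the titles pair the explants: deviations from group means correlated at 0.34 to 0.65 across genes in all 6 Control and IVF pairs and at a median of -0.10 between different numbers. They are called uteri here. Blocking lowered the biological coefficient of variation from 36.6% to 23.9%. Without the block, explants of 1 uterus are treated as independent. The groups, lists and tests were chosen with earlier results of these data known.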

Additional observations from a re-analysis of the deposited data

Results flagged for a closer look

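In the comparison of IVF with IFNT explants of the same uterus, uterus 2 stood apart from the others. Over genes that rose with IVF in the other uteri, the IVF explant of uterus 2 was 0.66 higher than its IFNT explant on the log2 scale, whereas the other 5 uteri lay between -0.38 and -0.19. The gap to the nearest uterus was 0.817 of the whole range over 6 uteri. This was 1 of 28 such groups of values examined, and chance alone singles out about 1 value in every 20 groups.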

How the results depend on the processing

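The direction and the call of the 4 genes given by identifier held in all 28 alternatives for IVF against Control, with log2 fold changes of 8.21 to 8.93, 8.15 to 8.64, -2.09 to -1.74 and -1.71 to -1.31 in the order of the text. The 513 calls became 1134 with the replicate block and 1707 in DESeq2 with the block, and stayed within 1.5 times in the other 26 alternatives. Risen genes (445) became 794 and 988. Fallen genes (68) became 340 and 719, 141 in DESeq2, 44 with the 2 groups alone and 190 with the block in the 6 pairs. They became 43 with 1 IVF library for each title code, a choice made after seeing the data that also left out both female conceptuses. Leaving out single libraries or uteri gave 20 to 87 fallen genes. For the blocked counts, leaving out gave 633 to 1210 calls (1134), 450 to 828 risen (794) and 146 to 382 fallen genes (340). DESeq2 gave 1707 calls and 719 fallen genes, and the 6 pairs gave 190 fallen genes.

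Between IVF and IFNT, 3 genes were called with the block, 10 in DESeq2 and 389 in DESeq2 with the block. Between IVF and AI, DESeq2 with the block called 85. DESeq2 called 13 genes for length and 285 for sex. Without 1 IVF library in turn, edgeR called 0 to 1 genes for length and 0 to 4 for sex. The cause of these differences was not tested. The remaining alternatives gave 0 calls in these 4 comparisons. Fits of length and sex in the 6 pairs were added after seeing the data.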

Other observations

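Switching on from no reads at all was rare. Of the genes with 0 reads in all 6 Control libraries, 15 had 10 or more reads in at least 1 IVF library, none had that many in all 7, and 13 of the 15 also had reads in IFNT libraries. Among the 445 risen genes, 1 had no Control read, with 3 to 21 reads per IVF library. In the 12 libraries without a conceptus, 258 genes with at least 1 IVF read had no read. Of these, 2 had reads in 4 or more of the 7 IVF libraries, and 2 reached 10 reads in any of them, with at most 60. Between IVF and Control alone, 489 genes had a read in IVF and none in the 6 Control libraries, with at most 256 reads in an IVF library, and 331 had a read in Control and none in the 7 IVF libraries, with at most 7 reads in a Control library. The IVF group has 1 library more and deeper libraries on average.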
